A study of Mus musculus with 16 samples.

Results

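The genes described here build fatty acids in the liver, feed sugar carbon into that synthesis, or supply the NADPH it uses. They were listed by name, 31 genes in all, and each was read from the transcript clusters of the array that the platform annotation assigns to that gene alone, with the brightest cluster taken where a gene had several. Of the 31 genes, 29 were matched and all 29 passed the filter on low values, an intensity over 20 (4.32 on the log2 scale) on at least 5 of the 16 arrays. They stand among 14275 tested genes of 18820 matched genes. G6pdx, the first enzyme of the oxidative pentose phosphate pathway, and Acsl3, a long-chain acyl-CoA synthetase whose cluster is shared with Utp14b, were not analysed here.

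As background, hepatocytes turn surplus carbohydrate into fat. Glucose and fructose are broken down to pyruvate, citrate carries the carbon out of the mitochondrion, and ATP citrate lyase, acetyl-CoA carboxylase and fatty acid synthase convert it into palmitate, which is then elongated and desaturated. Malic enzyme and the pentose phosphate pathway provide the NADPH, and the transcription factors SREBP1c and ChREBP, which respond to insulin and to sugar, drive most of these genes.

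RNA was measured in whole liver of 16 male C57BL/6J mice aged 12 months, with 1 mouse per array. From 9 weeks of age the mice had received 1 of 4 diets: 30% calorie restriction, given as a daily portion of AIN-93W-CR, a form of the control diet enriched in vitamins and minerals (CR), an intermittent regimen of weeks of 40% restriction and weeks of free access to the medium-fat diet in turn (INT), the medium-fat diet itself with 25% of energy from fat (MF), or the control diet AIN-93W (C), the last 2 freely available. The paper states that AIN-93W-CR was enriched to keep vitamin and mineral intake alike in CR and C mice. The weekly energy intake measured in the paper was lowest in CR mice, higher in INT mice and higher again in C and MF mice. INT mice were killed in a week of free access to MF. Every mouse was fasted for 4 h, received by gavage either the PPARα agonist pirinixic acid (Wy) at 160 mg/kg in carboxymethyl cellulose or this vehicle alone (mock), and was fasted for a further 6 h. Each diet had 4 mice: a Wy and a mock mouse of high body weight and a Wy and a mock mouse of low body weight, paired by body weight. The pairing was within a diet, and the classes do not match body weight between diets. The paper describes lower body weight in CR and INT than in C and MF mice. Diet and the timing of the last meal cannot be told apart, since at that time only CR mice were fed in daily portions. The arrays carried 2 codes, and the 2 arrays of the second code were both high body weight INT livers, so within INT body weight class and array code cannot be told apart.

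The deposited values were log2 intensities between 1.84 and 13.7. Over the tested genes, array medians lay between 7.07 and 7.21 and correlations between arrays from 0.982 to 0.994. The hepatocyte transcripts Alb and Ttr were between 13.35 and 13.50 and between 13.10 and 13.29 log2 on the 16 arrays. Of 5 matched adipocyte markers, Adipoq and Adig were under the filter on all 16 arrays and Lep on 14. The other adipocyte markers, Plin1 and Retn, were over it on all 16 but lay near it, at 4.88 to 5.22 and 4.34 to 4.81 log2. The number of arrays limits the precision, and in whole liver fewer cells of a type and less RNA per cell cannot be told apart. A gene was called where limma gave a Benjamini-Hochberg adjusted p under 0.05 over all 14275 genes. Errors are standard errors (SE) of that fit unless stated otherwise. Where the values of the 4 mice of a diet are listed, they are in the order high Wy, low Wy, high mock and low mock.

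The largest differences among the 29 genes were those of CR livers. CR and C mice differed in calories, in the vitamin and mineral content of the food and in feeding by daily portion. The paper also describes lower body weight and hepatic triglyceride in CR than in C mice, which cannot be told apart from diet here. In the comparison of CR with C livers 13 of 29 genes rose and none fell. Over all tested genes 10.5% were called in this comparison and 4.54% were called higher. The share called was 6.19 to 6.87% without any 1 of the 4 C livers or high CR Wy. Of the 29 log2 changes 24 were positive, and their median was 0.26 against -0.01 for all tested genes. By role, 5 of 6 genes of fatty acid synthesis, 3 of 4 of NADPH supply and the pentose pathway, 2 of 3 of the end of glycolysis and fructolysis, 1 of 8 of desaturation and elongation, 1 of 4 regulators and 1 of 4 ligases and patatin-like lipases rose, while of the desaturases (Scd1, Scd2, Fads1 and Fads2) none was called.

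The enzymes that make acetyl-CoA, malonyl-CoA and palmitate held the largest change. Acly, ATP citrate lyase, which splits citrate into acetyl-CoA, had 11.73, 11.81, 12.05 and 11.58 log2 in CR livers, against 9.50, 10.14, 9.93 and 10.13 log2 in C livers. The lowest CR liver was 1.44 log2 above the highest of the 12 livers on the other diets. Acly rose 3.65-fold (log2 change 1.87 ± 0.20, limma adjusted p = 0.000163, n = 4 per diet). Fasn, fatty acid synthase, had 12.86, 12.61, 12.85 and 12.34 log2 in CR livers, against 11.70, 11.90, 11.50 and 11.61 log2 in C livers. The groups did not overlap, and Fasn rose 1.99-fold (0.99 ± 0.11). Acaca, the acetyl-CoA carboxylase of the cytosol that feeds synthesis, had 11.43, 11.41, 11.65 and 10.88 log2 in CR livers, against 10.18, 10.59, 10.17 and 10.37 log2 in C livers (1.02 ± 0.16). Low CR mock was the lowest of the CR livers for Acly, Fasn and Acaca.

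Acss2, which makes acetyl-CoA from acetate, rose 1.75-fold in CR livers (0.81 ± 0.15), with 12.03 to 12.49 log2 in CR livers against 11.11 to 11.66 log2 in C livers. Slc25a1, the citrate carrier of the mitochondrial membrane, rose by a small amount (0.21 ± 0.05), with 11.95 to 12.06 log2 in CR livers and 11.73 to 11.82 log2 in C livers. Its call was lost without high C Wy (0.20, limma adjusted p = 0.059) or low CR mock (0.20, limma adjusted p = 0.0558). Acacb, the carboxylase at the mitochondrial surface, whose malonyl-CoA restrains fatty acid import, did not pass the test against C (0.62 ± 0.20, limma adjusted p = 0.0652), but was called without high CR Wy (0.75, limma adjusted p = 0.0478) or low INT mock (0.62, limma adjusted p = 0.0122). Its values of 10.82 to 11.38 log2 in CR livers overlapped those of 10.05 to 11.01 log2 in C livers.

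**Figure D1:**
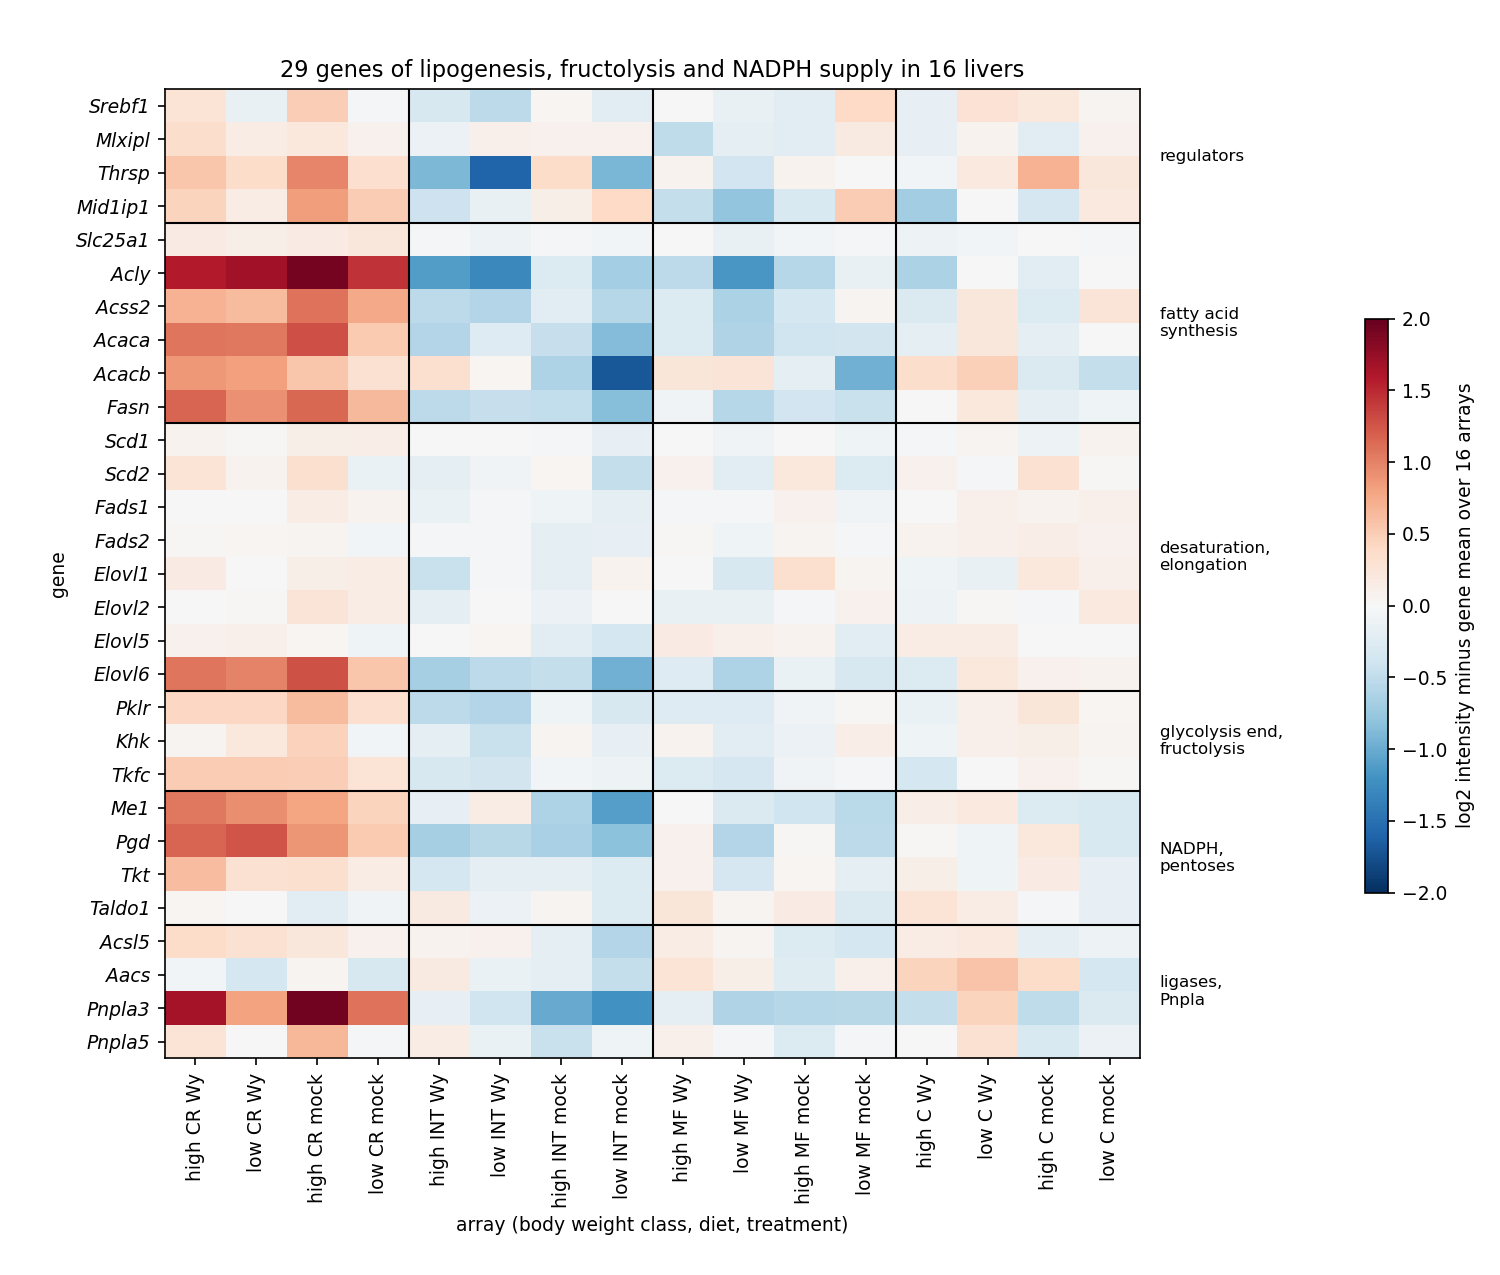
Log2 intensity of each of the 29 genes (rows, by role) on each of 16 arrays (columns, by diet, treatment and body weight class), as the difference from the gene's own mean over the arrays. The 4 CR columns hold the highest values of Acly, Fasn, Elovl6, Pgd and Pnpla3, and Scd1, Fads1 and Fads2 differ little between columns.

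Genes of NADPH supply rose as well. Me1, cytosolic malic enzyme, which yields NADPH while returning malate to pyruvate, had 12.70, 12.58, 12.44 and 12.09 log2 in CR livers, against 11.78, 11.84, 11.37 and 11.34 log2 in C livers, and rose 1.83-fold (0.87 ± 0.13). Pgd, 6-phosphogluconate dehydrogenase of the oxidative pentose phosphate pathway, had 10.86, 10.95, 10.58 and 10.22 log2 in CR livers, against 9.71, 9.61, 9.90 and 9.39 log2 in C livers. It rose 2.00-fold (1.00 ± 0.14, limma adjusted p = 0.000821), and as with Acly no CR value lay within the range of any other diet. Of the non-oxidative enzymes that rearrange the sugars, transketolase Tkt rose (0.34 ± 0.09), with 8.87 to 9.34 log2 in CR livers and 8.56 to 8.88 log2 in C livers, whereas transaldolase Taldo1 was at -0.12 ± 0.08 (limma adjusted p = 0.401). The call of Tkt was lost without any 1 of the Wy livers of CR and C, of either body weight class, or of low C mock (0.27 to 0.33, limma adjusted p between 0.0578 and 0.0932).

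Of the glycolytic and fructolytic genes, Pklr, liver pyruvate kinase, rose 1.30-fold (0.38 ± 0.09), with 12.24 to 12.54 log2 in CR livers and 11.78 to 12.15 log2 in C livers. Its call was lost without high C Wy (0.33, limma adjusted p = 0.0533) or low C mock (0.34, limma adjusted p = 0.0509). Tkfc, the triokinase that phosphorylates the glyceraldehyde released from fructose, rose 1.42-fold (0.50 ± 0.10), and its 11.88 to 12.12 log2 in CR livers lay above the 11.25 to 11.69 log2 in C livers. Khk, ketohexokinase, which commits fructose to breakdown, was not called (0.12 ± 0.11, limma adjusted p = 0.575), with 11.37 to 11.89 log2 in CR livers and 11.35 to 11.55 log2 in C livers.

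Among 8 desaturases and elongases only Elovl6 was called in CR against C. Elovl6, which elongates palmitate to stearate, had 12.47, 12.40, 12.69 and 11.97 log2 in CR livers, against 11.14, 11.62, 11.49 and 11.47 log2 in C livers, and rose 1.93-fold (0.95 ± 0.15). Scd1, the main hepatic stearoyl-CoA desaturase, had 13.39 to 13.50 log2 in CR livers and 13.27 to 13.43 log2 in C livers (0.09 ± 0.06, limma adjusted p = 0.411). All 16 values of Scd1 lay between 13.20 and 13.50 log2, close to the highest value of the whole table at 13.7. Its isoform Scd2 was at 0.04 ± 0.10, the delta-5 and delta-6 desaturases Fads1 and Fads2 at -0.02 ± 0.06 and -0.08 ± 0.06, and the elongases of very long or polyunsaturated chains Elovl1, Elovl2 and Elovl5 at 0.09 ± 0.11, 0.09 ± 0.06 and -0.04 ± 0.07.

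Of the regulators, Mid1ip1, a protein that promotes the polymerised, active form of acetyl-CoA carboxylase, was called (0.69 ± 0.19, limma adjusted p = 0.032), with 7.91 to 8.60 log2 in CR livers overlapping 7.07 to 7.96 log2 in C livers. This call was lost without any 1 of the 4 high body weight livers of CR and C or low C mock (0.57 to 0.71, limma adjusted p between 0.0645 and 0.111). Its relative Thrsp, the thyroid hormone-responsive Spot 14 protein, was not called (0.29 ± 0.21, limma adjusted p = 0.429). The genes of the 2 transcription factors were not called either: Srebf1, which encodes SREBP1, was at 0.05 ± 0.15 and Mlxipl, which encodes ChREBP, at 0.26 ± 0.11 (limma adjusted p = 0.17). Transcript levels do not show how much of either factor was processed or active.

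Pnpla3, a patatin-like lipase of lipid droplets, rose 2.99-fold (1.58 ± 0.26), with 8.71, 7.84, 8.97 and 8.13 log2 in CR livers, against 6.57, 7.48, 6.53 and 6.75 log2 in C livers. The high body weight CR livers were the highest of all 16, and the lowest CR liver was still above every other liver. Its neighbour in the family, Pnpla5, was not called (0.26 ± 0.16) and stayed dim, between 4.42 and 5.54 log2 on all arrays. Acsl5, a long-chain acyl-CoA synthetase, was at 0.24 ± 0.08 (limma adjusted p = 0.0771), and was called without low INT mock (0.24, limma adjusted p = 0.0334). Aacs, which activates acetoacetate for synthesis, was at -0.42 ± 0.15 (limma adjusted p = 0.0855), and was called lower without low C mock (-0.57, limma adjusted p = 0.0214).

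For 11 of 29 genes (Slc25a1, Acly, Acss2, Acaca, Fasn, Elovl6, Pklr, Tkfc, Me1, Pgd and Pnpla3) the 4 CR livers all lay above the 12 livers on the other diets, a pattern found in 1.90% of all tested genes. Tkt missed this pattern by 0.01 log2. For none of the 29 did the 4 CR livers all lie below the others, against 2.06% of all tested genes. In the plot of levels by diet the separation is wide for Acly and Pnpla3 and is not seen for Scd1.

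**Figure D2:**
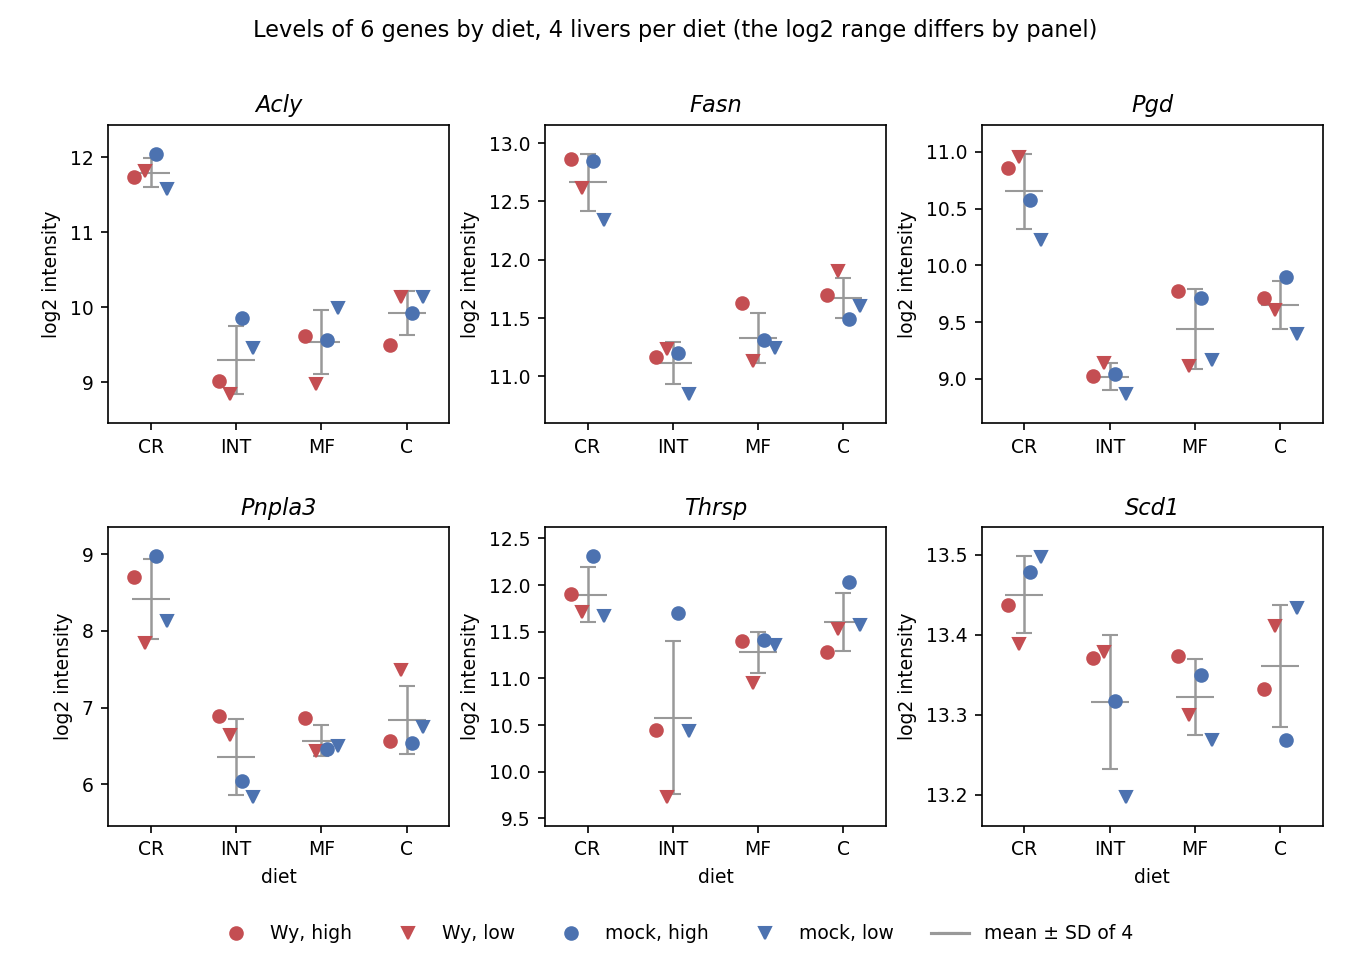
Log2 intensity of 6 genes in the 4 livers of each diet, with Wy livers in red and mock livers in blue, high body weight as circles and low body weight as triangles, and grey bars for the mean ± SD of the 4. Acly, Fasn, Pgd and Pnpla3 lie higher in CR than on any other diet, Thrsp has its lowest values in INT, and all Scd1 values lie between 13.20 and 13.50.

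Within each treatment and each body weight class the CR minus C differences of Acly, Fasn and Pnpla3 were positive. In mice of high body weight 12 of the 29 genes were called, beside 7.54% of all tested genes, and in mice of low body weight 3, beside 2.18%, so fewer were called in low body weight mice among the members and over all genes alike. Acly was at 2.17 in high and 1.56 in low, Fasn at 1.26 in high and 0.72 in low, and Pnpla3 at 2.29 in high and 0.87 in low (not called in low, limma adjusted p = 0.139). In Wy livers 5 genes were called, beside 1.12% of all tested genes, and in mock livers 4, beside 2.08%, with Acly at 1.95 in Wy and 1.78 in mock livers. These subsets hold 2 mice per diet, and mice of the same class on different diets were not matched by weight.

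To show the control regions of genes that rose in CR livers, the promoters of the 4 called genes with the smallest adjusted p that have an entry are given, from 250 bases before to 50 bases after the listed start, 5′ to 3′ on the minus strand of GRCm38.p6 (RefSeq). They are Acly at chr11:100527951-100528250, Fasn at chr11:120824498-120824797, Pgd at chr4:149166656-149166955 and Me1 at chr9:86695865-86696164. For Pgd and Me1, which have more than 1 listed start, the first entry was used. Capitals mark matches, on either strand, to CCAAT (bound by NF-Y), GGGCGG (bound by Sp1), CACGTG (an E-box) or TCACNCCAC (a sterol regulatory element).
Acly: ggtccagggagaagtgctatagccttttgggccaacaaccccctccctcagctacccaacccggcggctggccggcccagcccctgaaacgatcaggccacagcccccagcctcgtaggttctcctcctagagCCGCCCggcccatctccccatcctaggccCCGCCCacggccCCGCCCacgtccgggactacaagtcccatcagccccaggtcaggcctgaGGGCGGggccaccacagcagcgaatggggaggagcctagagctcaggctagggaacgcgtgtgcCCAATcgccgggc
Fasn: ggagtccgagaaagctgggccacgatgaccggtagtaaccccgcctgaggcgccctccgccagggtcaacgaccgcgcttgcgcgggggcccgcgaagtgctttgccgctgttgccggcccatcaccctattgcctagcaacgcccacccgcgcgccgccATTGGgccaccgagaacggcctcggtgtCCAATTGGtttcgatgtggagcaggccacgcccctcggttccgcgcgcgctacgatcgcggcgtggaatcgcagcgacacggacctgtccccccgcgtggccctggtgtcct
Pgd: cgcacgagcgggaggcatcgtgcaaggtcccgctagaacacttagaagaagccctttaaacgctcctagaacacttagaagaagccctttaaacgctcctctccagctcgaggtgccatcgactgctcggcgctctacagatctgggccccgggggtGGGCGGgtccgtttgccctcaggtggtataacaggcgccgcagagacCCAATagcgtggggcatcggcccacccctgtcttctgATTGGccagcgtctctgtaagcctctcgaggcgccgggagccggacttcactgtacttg
Me1: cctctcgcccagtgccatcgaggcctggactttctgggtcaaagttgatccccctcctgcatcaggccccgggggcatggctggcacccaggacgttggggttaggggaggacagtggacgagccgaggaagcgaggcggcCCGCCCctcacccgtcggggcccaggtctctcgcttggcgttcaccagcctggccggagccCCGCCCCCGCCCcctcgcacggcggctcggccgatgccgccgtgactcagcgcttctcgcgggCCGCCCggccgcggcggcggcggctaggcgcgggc
In the Acly promoter GGGCGG or its complement was found at -117, -88, -76 and -27 and CCAAT at 38, counted from 1 at the start and from -1 before it. In Fasn the CCAAT box or its complement stood at -90, -62 and -59, and the last 2 matches overlap. Pgd had a GGGCGG match at -93 and CCAAT matches at -46 and -9, and Me1 had GGGCGG matches at -109, -48, -42 and 16.

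Of the 29 genes 26 had a promoter entry, 13 of them called in CR against C and 13 not. CCAAT was found in 15 of the 26 (7 of the called and 8 of the others), against 37.9% of 27025 promoters. GGGCGG was found in 14 (8 of the called and 6 of the others), against 35.9%. CACGTG was found in 4 (1 of the called, Slc25a1, and 3 of the others, Elovl5, Khk and Pnpla5), against 7.24%, and TCACNCCAC in 1, Mlxipl, against 1.22%. A match is a run of letters and not a measured site, and these windows hold only the bases nearest the start.

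CR livers were next compared with MF livers. CR and MF mice differed in calories, in the fat, carbohydrate, protein, vitamin and mineral content of the food and in feeding by daily portion. As with C, the paper describes lower body weight and hepatic triglyceride in CR than in MF mice. In this comparison 16 of 29 genes rose and none fell, beside 12.7% of all tested genes called and 5.79% called higher. The share called was 7.40 to 8.27% without any 1 of high CR Wy, high MF mock or high MF Wy. The comparison shares its CR arrays with that of CR and C, so the values below are set side by side and are not an independent repeat. Acly was 4.77-fold higher in CR than in MF livers (2.25 ± 0.20), with 9.62, 8.97, 9.57 and 9.99 log2 in MF livers. Fasn was 2.53-fold (1.34 ± 0.11), Acaca 2.64-fold (1.40 ± 0.16), Elovl6 2.47-fold (1.31 ± 0.15) and Pnpla3 3.60-fold higher (1.85 ± 0.26). Me1 (1.11 ± 0.13), Pgd (1.21 ± 0.14), Acss2 (1.09 ± 0.15), Tkfc (0.62 ± 0.10), Pklr (0.58 ± 0.09), Tkt (0.45 ± 0.09) and Slc25a1 (0.23 ± 0.05) rose as well.

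Acacb (0.80 ± 0.20), Acsl5 (0.35 ± 0.08), Mid1ip1 (0.75 ± 0.19) and Mlxipl (0.39 ± 0.11) completed the 16. The ChREBP gene Mlxipl had 11.05, 10.84, 10.91 and 10.78 log2 in CR livers, against 10.18, 10.50, 10.47 and 10.88 log2 in MF livers, so the groups overlapped through low MF mock. Its call was lost without any 1 of the high body weight livers of CR and MF, or of high C Wy, low MF Wy or low C mock (0.28 to 0.39, limma adjusted p between 0.0501 and 0.128). The call of Mid1ip1 was lost without high CR mock, high CR Wy, high MF mock or low MF Wy (0.59 to 0.68, limma adjusted p between 0.0622 and 0.0727), and that of Acacb without high CR mock, high MF Wy or low CR mock (0.70 to 0.73, limma adjusted p between 0.0549 and 0.0614). Thrsp was at 0.62 ± 0.21 (limma adjusted p = 0.0714), and was called when high INT mock, a liver of neither diet, was left out of the fit (0.62, limma adjusted p = 0.0118).

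INT mice were restricted in alternate weeks but were killed in a week of free feeding, and their livers were compared with CR livers. In that week they ate the medium-fat diet. They therefore differed from CR mice in calories, in the fat, carbohydrate, protein, vitamin and mineral content of the food and in feeding by daily portion. Here 15 of 29 genes fell in INT livers and none rose, beside 9.85% of all tested genes called and 4.28% called lower. Without the 2 arrays of the second code 14 of 29 genes were called, beside 2.65% of all tested genes, and with array code as a term 14 were called, beside 2.35%. Without high INT mock alone the share of all genes was 6.06%. Of the 29 log2 changes 27 were negative, with a median of -0.41 against 0.01 for all tested genes. The CR arrays are again those used above.

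Acly had 9.02, 8.85, 9.86 and 9.45 log2 in INT livers, against 11.73, 11.81, 12.05 and 11.58 log2 in CR livers, a 5.64-fold lower level (-2.50 ± 0.20, limma adjusted p = 1.01e-05). Pnpla3 had 6.88, 6.65, 6.04 and 5.84 log2 in INT livers, against 8.71, 7.84, 8.97 and 8.13 log2 in CR livers (-2.06 ± 0.26). Pgd was 3.10-fold lower (-1.63 ± 0.14), with INT livers within 8.87 to 9.14 log2. Elovl6 was 3.09-fold (-1.63 ± 0.15), Fasn 2.93-fold (-1.55 ± 0.11) and Acaca 2.89-fold lower (-1.53 ± 0.16). Acss2 (-1.27 ± 0.15), Me1 (-1.23 ± 0.13), Acacb (-1.12 ± 0.20), Pklr (-0.83 ± 0.09), Tkfc (-0.66 ± 0.10), Tkt (-0.60 ± 0.09), Acsl5 (-0.40 ± 0.08) and Slc25a1 (-0.23 ± 0.05) fell too.

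Thrsp was called in this comparison, at -1.32 ± 0.21 (limma adjusted p = 0.00175). It had 10.44, 9.73, 11.70 and 10.43 log2 in INT livers, against 11.90, 11.71, 12.31 and 11.67 log2 in CR livers, so the groups met only at high INT mock. That liver is 1 of the 2 on a second array code; without both, Thrsp remained called. Mid1ip1 (-0.49 ± 0.19, limma adjusted p = 0.119), Srebf1 (-0.41 ± 0.15, limma adjusted p = 0.12), Khk (-0.35 ± 0.11, limma adjusted p = 0.068) and Scd2 (-0.31 ± 0.10, limma adjusted p = 0.0584) did not pass the test. Khk was called without low CR mock (-0.45, limma adjusted p = 0.0305), and Scd2 without low INT Wy (-0.41, limma adjusted p = 0.0111) or after median centring (-0.35, limma adjusted p = 0.0371). Leaving out any 1 array lost none of the 15 calls, and that of Slc25a1 was lost without the 2 arrays of the second code (-0.24, limma adjusted p = 0.0911).

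**Figure D3:**
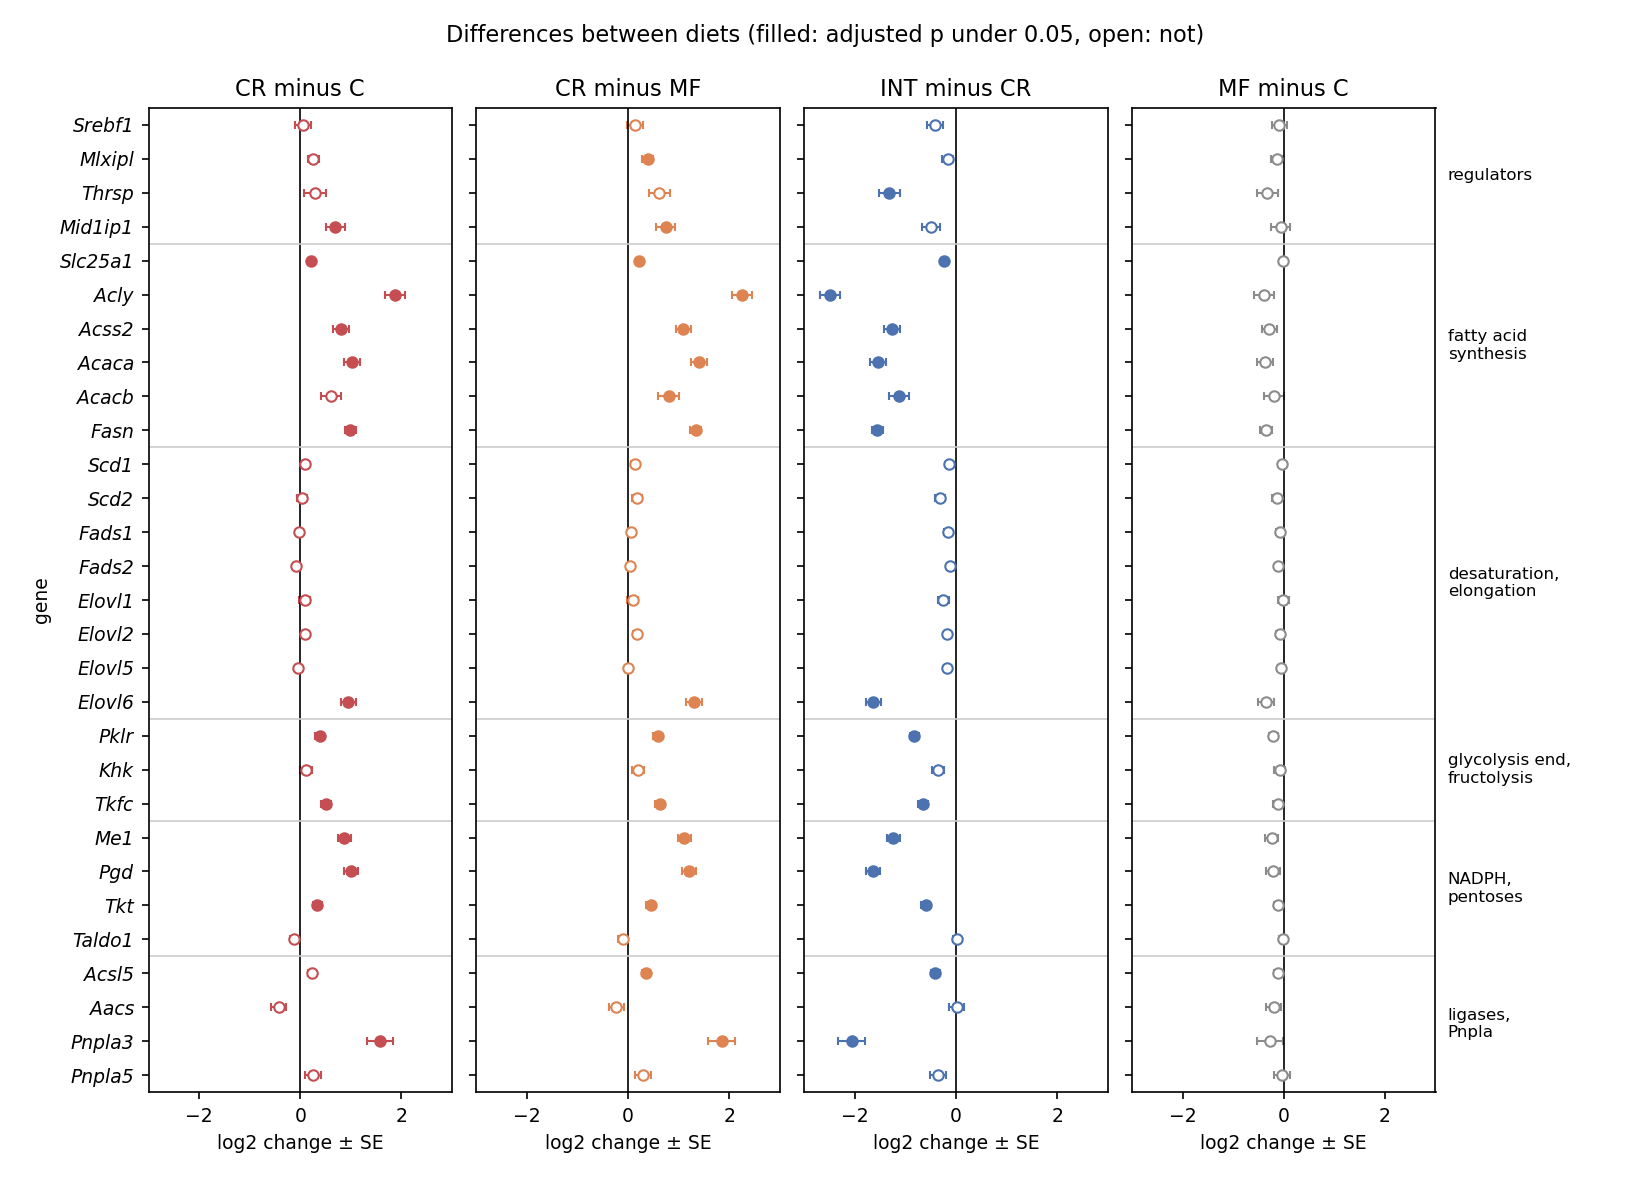
Fitted log2 change ± SE of each of the 29 genes between diets, in 4 panels that share the gene axis, with filled points for limma adjusted p under 0.05. All filled points lie to the right of 0 in CR minus C and CR minus MF and to the left in INT minus CR, the widest being Acly at 1.87, 2.25 and -2.50, and no point is filled in MF minus C.

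The 3 comparisons without CR livers gave no called member. For MF against C livers limma called 0% of tested genes (0 genes, with 628 at an unadjusted p under 0.05), and 4 of the 29 had an unadjusted p under 0.05. All 29 log2 changes were negative with a median of -0.12. Over all tested genes 47.7% of changes were positive and the median was -0.005. The deepest of the 29 were Acly at -0.39 ± 0.20 and Acaca at -0.38 ± 0.16. Fasn, at -0.35 ± 0.11, had 11.63, 11.13, 11.31 and 11.24 log2 in MF livers, against 11.70, 11.90, 11.50 and 11.61 log2 in C livers, which overlap through high MF Wy.

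INT livers also had lower values than C livers without passing the test. Limma called 1 gene of all tested genes (0.00701%, with 1405 at an unadjusted p under 0.05) and none of the 29, of which 17 had an unadjusted p under 0.05. Of the 29 changes 27 were negative, with a median of -0.26, while 48.4% of the changes of all tested genes were positive. Thrsp was at -1.03 ± 0.21 (limma adjusted p = 0.129), Elovl6 at -0.68 ± 0.15, Pgd at -0.63 ± 0.14, Acly at -0.63 ± 0.20, Fasn at -0.56 ± 0.11 and Pklr at -0.44 ± 0.09. For Fasn the INT livers had 11.17, 11.23, 11.20 and 10.85 log2, all below the C livers, whose lowest was 11.50. Without high INT mock 1 member, Thrsp, was called (-1.30, limma adjusted p = 0.00722). For INT against MF livers 0% of tested genes (1629 at an unadjusted p under 0.05) and none of the 29 were called by limma. Of the 29 changes 27 were negative, with a median of -0.15, while 50.1% of the changes of all tested genes were positive. An unadjusted p under 0.05 was reached by 4, led by Thrsp at -0.70 ± 0.21 and Pgd at -0.42 ± 0.14.

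The effect of the PPARα agonist was taken from the 8 body weight-matched pairs. PPARα is the fatty acid-activated receptor that drives fatty acid oxidation in the fasted liver. Of the 29 genes 5 rose and 5 fell in Wy livers, while 28.3% of all tested genes were called, so the count of members was near the share of all genes. Of the 14275 tested genes 1755 (12.3%) were called higher and 2283 lower in Wy livers. When each array was centred on its median, 6 rose and 3 fell, and over all genes 2190 of 4066 calls were higher, against 1755 of 4038 without centring. The members that rose were those of malonyl-CoA at the mitochondrion, malic enzyme, acyl-CoA activation, transaldolase and 1 elongase.

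Acacb changed most. Its level was 10.57, 10.85 and 11.38 log2 (lowest, median and highest) in Wy livers, against 8.83, 10.14 and 11.08 log2 in mock livers. It was higher in 8 of 8 pairs, by 0.31 in high CR to 1.73 in low INT, and rose 1.79-fold (0.84 ± 0.14, limma adjusted p = 0.000906). Its cytosolic counterpart Acaca was not called (0.12 ± 0.10, limma adjusted p = 0.418), with 5 of 8 pairs higher.

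Me1 was higher in 8 of 8 pairs and rose 1.42-fold (0.50 ± 0.10), with 11.37, 11.79 and 12.70 log2 in Wy livers, against 10.55, 11.30 and 12.44 log2 in mock livers. Acsl5 had 11.74, 11.83 and 12.05 log2 in Wy livers, against 11.10, 11.48 and 11.91 log2 in mock livers (0.35 ± 0.06, 8 of 8 pairs higher). Taldo1 (0.21 ± 0.05) and Elovl5 (0.19 ± 0.05) were also higher in 8 of 8 pairs. For all 5 genes the Wy and mock ranges overlapped over the diets, and the difference showed within pairs.

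Mid1ip1 fell most in Wy livers. It had 6.98, 7.49 and 8.22 log2 in Wy livers, against 7.43, 8.06 and 8.60 log2 in mock livers, and was lower in 8 of 8 pairs (-0.48 ± 0.11, limma adjusted p = 0.00598). Thrsp, at 9.73, 11.34 and 11.90 log2 in Wy livers against 10.43, 11.62 and 12.31 log2 in mock livers, was higher in 1 of 8 pairs (-0.44 ± 0.13, limma adjusted p = 0.0262). Elovl1 (-0.21 ± 0.05, 1 of 8 pairs higher), Pklr (-0.20 ± 0.06, 2 of 8) and Elovl2 (-0.14 ± 0.04, 0 of 8) fell by smaller amounts.

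Several of these falls lost their call when 1 mouse was left out, though the changes stayed negative. The call of Thrsp was lost without a mouse of the high C, low MF or low INT pair (-0.45 to -0.40, limma adjusted p between 0.0505 and 0.0674). That of Elovl2 was lost without a mouse of any pair other than the INT pairs (-0.14 to -0.12, limma adjusted p between 0.0534 and 0.0826) and after median centring (-0.11, limma adjusted p = 0.15). That of Pklr was lost without a mouse of any pair other than the low C and low CR pairs (-0.20 to -0.17, limma adjusted p between 0.0599 and 0.0881) and after centring (-0.17, limma adjusted p = 0.0531), and Elovl1 was lost without the pair as a block (-0.21, limma adjusted p = 0.0598).

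Most core synthesis genes were not called with Wy. Acly was at -0.36 ± 0.13 (limma adjusted p = 0.058) with 3 of 8 pairs higher, Fasn at 0.17 ± 0.06 (limma adjusted p = 0.0692) with 6 of 8 higher, and Elovl6 at -0.02 ± 0.10. Without a mouse of the low CR pair Acly was called (-0.45, limma adjusted p = 0.0215), as it was without one of the high MF pair (-0.42, limma adjusted p = 0.0428), and Fasn was called without one of the low MF pair (0.21, limma adjusted p = 0.0319), after median centring (0.20, limma adjusted p = 0.0401) and with trended and robust moderation (0.17, limma adjusted p = 0.0389). Scd1 was at 0.02 ± 0.04, Pgd at 0.16 ± 0.09, Tkfc at -0.16 ± 0.07 and Srebf1 at -0.18 ± 0.09. Tkfc was called lower without a mouse of the low CR pair (-0.21, limma adjusted p = 0.0301). Aacs, higher in 6 of 8 pairs, was called higher only without a mouse of the high CR pair (0.32, limma adjusted p = 0.0473). Whether the Wy effect differed by diet was tested as an interaction, and limma called 0% of tested genes (669 at an unadjusted p under 0.05) and none of the 29, with 1 of them, Pnpla3, at an unadjusted p under 0.05. Pnpla3 was higher with Wy by 0.84 and 0.81 in the high and low INT pairs, against -0.27 and -0.30 in the CR pairs. The high and low pairs differed more in C (0.03 and 0.73) and in MF (0.40 and -0.06). Nor did limma call any of the 29, or of all tested genes (0%, with 673 at an unadjusted p under 0.05), for a Wy effect that differed by body weight class. Among the 29, 3 had an unadjusted p under 0.05: Acacb (high minus low -0.53 ± 0.23), Elovl6 (-0.40 ± 0.16) and Scd2 (-0.30 ± 0.12).

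**Figure D4:**
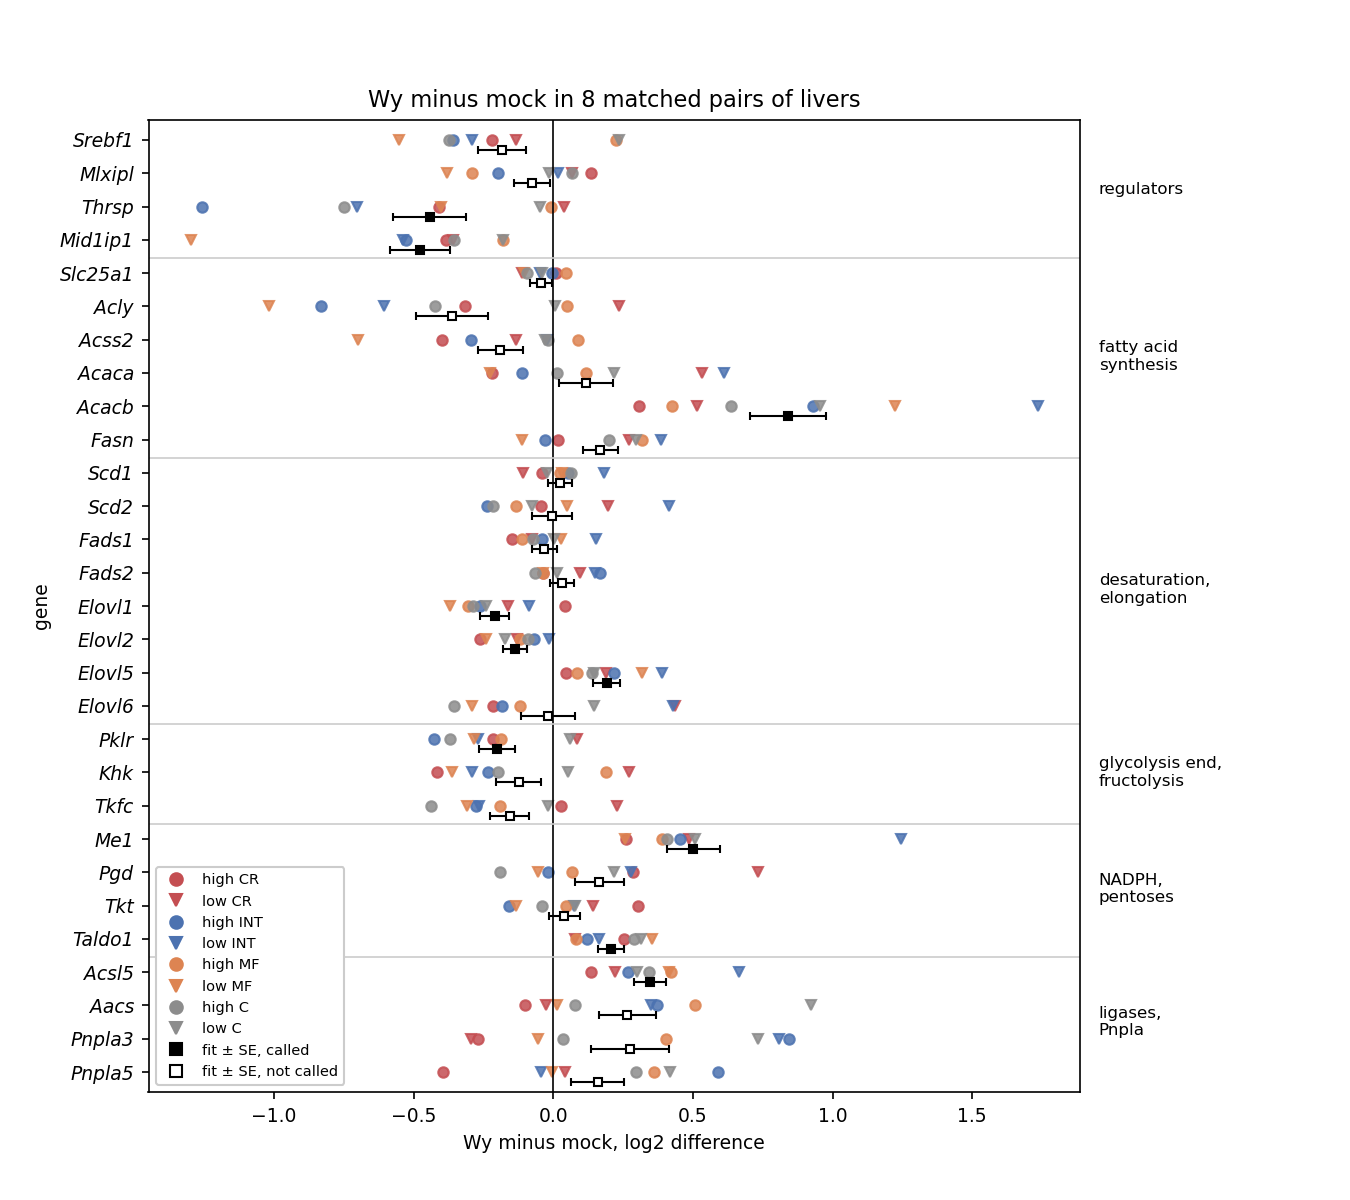
Wy minus mock difference in log2 intensity of each of the 29 genes in 8 matched pairs (coloured by diet, circles for high and triangles for low body weight), with the fitted mean ± SE as a black square, filled where limma adjusted p was under 0.05. All 8 pairs of Acacb, Me1, Acsl5, Taldo1 and Elovl5 lie right of 0, and all 8 pairs of Mid1ip1 and Elovl2 left of it.

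Body weight class was compared over all diets and within pairs of diets, since the study describes a wide spread of body weight in C and MF and a narrow one in CR and INT. Over all diets limma called 0% of tested genes (2000 at an unadjusted p under 0.05) and none of the 29. Of the 29 changes 25 were positive, beside 47.6% of the changes of all tested genes. An unadjusted p under 0.05 was reached by 6, led by Scd2 at 0.28 ± 0.07 (limma adjusted p = 0.157). Scd2 had 6.99, 7.34 and 7.51 log2 in high and 6.72, 7.10 and 7.26 log2 in low body weight livers.

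In C and MF mice 2 of the 29 genes, Pgd and Tkt, rose in high body weight livers, beside 7.39% of all tested genes called and 4.67% called higher, so the count of members was near the share of all genes. That share was 1.27 to 3.98% without any 1 of the 4 C livers or the 2 mock MF livers. Pgd had 9.71, 9.90, 9.78 and 9.71 log2 in the high C Wy, high C mock, high MF Wy and high MF mock livers, against 9.61, 9.39, 9.11 and 9.17 log2 in their low counterparts. These groups did not overlap, and the change was 0.45 ± 0.12 (limma adjusted p = 0.04998). Tkt had 8.84, 8.88, 8.80 and 8.76 log2 in the same high livers, against 8.64, 8.56, 8.39 and 8.52 log2 in the low ones (0.29 ± 0.08, limma adjusted p = 0.047). Taldo1, of the same pathway, was at 0.23 ± 0.07 (limma adjusted p = 0.062), and Mlxipl was at -0.32 ± 0.09 (limma adjusted p = 0.0588). Mlxipl was called lower in high body weight livers after median centring (-0.33, limma adjusted p = 0.0364) and with trended and robust moderation (-0.32, limma adjusted p = 0.0376).

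Both calls stood at the threshold. That of Pgd was lost without any 1 of 13 of the 16 arrays, all but high C Wy, low CR mock and low CR Wy (0.35 to 0.52, limma adjusted p between 0.0564 and 0.194). That of Tkt was lost without any 1 of 12, all but high CR mock, high CR Wy, high INT mock and high INT Wy (0.24 to 0.34, limma adjusted p between 0.0561 and 0.163). Without low MF Wy 3 other members were called lower in high body weight livers: Mid1ip1 (-0.67), Acss2 (-0.42) and Mlxipl (-0.41). Some macrophage, stellate and endothelial markers moved with body weight in the same mice. Of 9 Kupffer cell and macrophage markers 3 rose (Gpnmb 2.22, Trem2 0.88 and Cd68 0.76) and Timd4 fell (-0.71). Of 6 stellate markers 2 rose (Col1a1 0.55 and Col3a1 0.53), and of 5 endothelial markers 2 rose (Lyve1 0.97 and Pecam1 0.28). The endothelial marker Kdr had 7.83 to 8.75 log2 in high and 8.56 to 8.82 log2 in low body weight livers. For Stab2, also endothelial, these ranges were 9.37 to 9.64 and 9.46 to 9.58 log2. The erythroid marker Alas2 had a linear intensity of 591.0 to 749.9 in high and 855.1 to 1051 in low body weight livers. The summed linear intensity of the 9 macrophage markers was 3563 to 5212 in high and 3303 to 3748 in low body weight livers of these diets, and that of the 6 stellate markers 5633 to 6258 in high and 4940 to 5482 in low. Their part in the result was not tested.

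In CR and INT mice limma called 0% of tested genes (679 at an unadjusted p under 0.05) and none of the 29 for body weight. Of the 29 changes 27 were positive, beside 45.3% of the changes of all tested genes. Among the 29, 5 had an unadjusted p under 0.05: Thrsp (0.70 ± 0.19), Pnpla3 (0.54 ± 0.20), Srebf1 (0.35 ± 0.12), Fasn (0.26 ± 0.09) and Scd2 (0.26 ± 0.10). In CR livers alone, all on the first array code, the high minus low differences were 0.41 for Thrsp, 0.85 for Pnpla3, 0.47 for Srebf1, 0.38 for Fasn and 0.32 for Scd2. In INT livers, where body weight class and array code coincide, they were 0.99 for Thrsp, 0.22 for Pnpla3, 0.23 for Srebf1, 0.14 for Fasn and 0.19 for Scd2. The difference between the body weight effects of the 2 pairs of diets was called for 0.855% of tested genes (0.0140 to 1.95% when any 1 array was left out) and for none of the 29, of which 5 had an unadjusted p under 0.05. The deepest of these were Pnpla3 at -0.72 ± 0.28, Srebf1 at -0.54 ± 0.17 and Acss2 at -0.48 ± 0.16. Without low MF Wy 1 member, Mid1ip1, was called in this test (-0.69, limma adjusted p = 0.0394).

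Neighbouring genes of the pathway were read from 5 lists. The counts below stand beside shares called over all tested genes of 10.5% in CR against C and 9.85% in INT against CR livers. The shares were 12.7% in CR against MF livers and 28.3% with Wy. The median change of all tested genes was -0.01 in CR against C livers and -0.01 with Wy. Whether any list differed from all genes was not tested. Of 18 tested genes that control SREBP1c or ChREBP, 3 rose in CR against C livers and none fell (median 0.04): Insig1, which holds SREBP in the endoplasmic reticulum and is itself a target of SREBP (1.40 ± 0.18), Lpin1, a phosphatidate phosphatase (0.97 ± 0.25), and the insulin receptor substrate Irs2 (0.80 ± 0.17). In INT against CR livers, which share the CR arrays, 3 fell (-0.99 ± 0.18 for Insig1, -1.24 ± 0.25 for Lpin1 and -0.57 ± 0.17 for Irs2). With Wy 4 of the 18 rose and 4 fell (median -0.01), with Insig2 at 1.03 ± 0.17 and Ppargc1b, a coactivator, at 0.61 ± 0.10, and Prkab1, a subunit of the AMP-activated kinase, at -0.33 ± 0.06 and Insig1 at -0.56 ± 0.11.

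Of 11 tested genes of hexose uptake, glycolysis and polyols, 2 rose in CR against C livers (median 0.05), the glucokinase regulator Gckr (0.35 ± 0.08) and phosphofructokinase Pfkl (0.34 ± 0.10), and in INT against CR livers 3 fell (Gckr -0.56 ± 0.08, Pfkl -0.38 ± 0.10 and phosphoglycerate kinase Pgk1 -0.27 ± 0.07) while glycerate kinase Glyctk rose (0.49 ± 0.11). With Wy, Gckr (-0.43 ± 0.06) and the glucose transporter Slc2a2 (-0.43 ± 0.07) fell and Glyctk (0.27 ± 0.08) rose. Of 12 other elongation and desaturation enzymes 2 rose and 2 fell in CR against C livers (median 0.00), with Fads3 at 0.57 ± 0.09 and Elovl3 at -2.45 ± 0.48, and in INT against CR livers 2 rose and 3 fell, with Elovl3 at 2.26 ± 0.48. With Wy 4 rose and 1 fell, with the 3-ketoacyl-CoA reductase Hsd17b12 at 0.46 ± 0.07, the dehydratase Hacd1 at 0.43 ± 0.07 and Fads6 at -0.67 ± 0.05.

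Of 13 other NADPH sources none was called in CR against C livers by limma (median -0.02), with 5 at an unadjusted p under 0.05, while 1 rose and 2 fell in INT against CR livers, Idh2 at -0.48 ± 0.10, Nadk at -0.26 ± 0.06 and H6pd at 0.30 ± 0.07. With Wy 5 of the 13 rose and 2 fell, with ribose phosphate isomerase Rpia at 0.98 ± 0.06 and the folate enzyme Mthfd1 at -0.39 ± 0.05. Of 12 other acetyl-CoA and acyl-CoA enzymes 2 rose and 2 fell in CR against C livers (median -0.09), with Dlat, a subunit of the pyruvate dehydrogenase complex, at 0.64 ± 0.07, and pyruvate carboxylase Pcx at -0.43 ± 0.07. In INT against CR livers 2 rose and 4 fell, and Dlat was at -0.98 ± 0.07 and Pcx at 0.34 ± 0.07. With Wy 3 rose and none fell, with malonyl-CoA decarboxylase Mlycd, which removes malonyl-CoA, at 0.64 ± 0.05. In CR against MF livers the calls higher and lower were 3 and 1 for the control list, 1 and 0 for hexose use, 3 and 2 for elongation and desaturation, 0 and 1 for NADPH and 3 and 1 for acetyl-CoA and acyl-CoA.

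Other liver cell types were checked beside the diet results. In CR against C livers the erythroid marker Alas2 (-1.34 ± 0.14) and the B cell marker Cd79b, of 6 lymphocyte markers (-0.77 ± 0.21), fell. The collagen gene Col1a1, of 6 stellate markers (-0.42 ± 0.10), and Cela1, of 3 acinar markers (-0.30 ± 0.07), fell too. The stellate marker Lrat had 8.85 to 9.97 log2 in CR and 8.87 to 9.47 log2 in C livers. The acinar marker Cpa1 had 4.84 to 4.86 log2 in CR, 4.66 to 4.87 log2 in INT and 4.71 to 4.90 log2 in C livers. Of 7 tested hepatocyte markers Tat rose in CR against C livers (0.65 ± 0.15). None of the 9 Kupffer cell and macrophage markers was called by limma, with 1 at an unadjusted p under 0.05. In INT against CR livers Alas2 (1.45 ± 0.14), the B cell marker Cd79a (0.82 ± 0.23) and Cela1 (0.35 ± 0.07) rose and Tat (-0.76 ± 0.15) and Cps1 (-0.26 ± 0.08) fell, and with Wy Tat (-0.39 ± 0.09) and Cps1 (-0.32 ± 0.04) fell. The linear intensity of Alas2 was 293.4 to 338.1 in CR, 726.9 to 1028 in INT, 591.0 to 1051 in MF and 691.7 to 939.6 in C livers. The summed linear intensity of 7 hepatocyte markers was 58760 to 66259 in CR, 54997 to 59876 in INT, 56535 to 60159 in MF and 52282 to 60713 in C livers, and that of 5 adipocyte markers 104.3 to 115.5 in CR, 101.5 to 109.3 in INT, 102.9 to 116.6 in MF and 105.1 to 113.3 in C livers. Their part in the lipogenic differences was not tested.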

How the data were processed

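Processed log2 intensities were used as deposited. The authors derived these log2 values from Affymetrix arrays with RMA, which subtracts background, brings all arrays to 1 distribution and combines the probes of each transcript cluster. For the RMA software no version was found in the labels. Bringing arrays to 1 distribution can hide a shift shared by most genes.

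Of 35556 transcript clusters, 21218 were annotated to 1 gene, 1881 to several and 12457 were not listed or unnamed. For 1386 genes with several clusters (Acaca and Me1 among the members) the cluster with the highest mean was used. All fits used limma (version 3.58.1, R version 4.3.3). The model for Wy minus mock had a term for each matched pair (replicate block) and 7 residual degrees of freedom, that for diets had terms for body weight class and treatment (10), that for body weight over all diets terms for diet and treatment (10), that for body weight within pairs of diets a term for each diet and class together with treatment (7), and the interactions again the matched pairs (4 by diet, 6 by class). The pairing by body weight comes from the labels. Over all genes, the high minus low differences of Wy and mock arrays correlated at -0.169 in CR, 0.0839 in INT, 0.564 in MF and 0.531 in C.

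The alternatives were no intensity filter, median centring of each array, the mean of all clusters of a gene, trended and robust moderation, no pair block, array code as a term, leaving out the 2 arrays of the second code (14 arrays carry the first), subsets by treatment or body weight class, and leaving out each array. The procedure was tested on simulated data. The genes, lists and rule for naming genes were chosen with earlier results of these data known. The rule names all members, those called with their comparison, and up to 4 genes of each list with the smallest p. Promoters are from RefSeq. Fitted p-values set a difference against the residual spread between mice. In the fits with matched pairs this is the spread of the Wy minus mock differences.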

Additional observations from a re-analysis of the deposited data

Results flagged for a closer look

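For each of the 29 genes the 4 livers of each diet and the 8 Wy minus mock pairs were searched for a value set apart from the rest (a gap to the next value above the critical share of the range, Dixon's test at 95%). Of 145 such groups 7 held one, and chance alone gives about 1 in 20.

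Mlxipl was lowest in high INT Wy at 10.57 log2, with the next INT liver at 10.77. Thrsp was lowest in low MF Wy at 10.95 log2, with the next MF liver at 11.35. Fasn was lowest in low INT mock at 10.85 log2, with the next INT liver at 11.17, and Tkfc was lowest in low CR mock at 11.88 log2, with the next CR liver at 12.09. Pnpla3 was highest in high MF Wy at 6.87 log2, with the next MF liver at 6.49. Among the pairs, Mid1ip1 had its lowest Wy minus mock difference in the low MF pair at -1.30, with the next at -0.54, and Me1 had its highest in the low INT pair at 1.25, with the next at 0.51. Low MF Wy was a member of both the Thrsp and the Mid1ip1 values, and low INT mock of both the Fasn and the Me1 values.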

How the results depend on the processing

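Of the alternatives tried, none reversed the direction of a called member. Leaving out any 1 array gave 7 to 11 called members for Wy minus mock, 9 to 15 for CR minus C, 13 to 17 for CR minus MF, 15 to 16 for INT minus CR, 0 to 1 for INT minus C, 0 to 3 for body weight in C and MF and 0 to 1 for the difference between body weight effects, and 0 for the other comparisons. Without the replicate block, which drops the pairing by body weight, 9 members were called for Wy minus mock in place of 10.

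In subsets with 2 mice per diet and the spread of all 16 arrays, CR minus C gave 4 called members in mock, 5 in Wy and 3 in low body weight livers. CR minus MF gave 7 in mock and 9 in low body weight livers, beside 1.67% and 2.64% of all tested genes, and INT minus MF gave 1 (Elovl1) in high body weight livers, near the 3.05% of all tested genes called there. Body weight in C and MF gave 0 called members with no intensity filter, 0 in mock livers, 0 in Wy livers and 1 without the 2 arrays of the second code, and 3 with median centring and with trended and robust moderation (Mlxipl, lower, beside Pgd and Tkt), against 2 in the fit reported.

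Acly and Fasn kept their calls in CR minus C, CR minus MF and INT minus CR under all 26 alternatives. The cause of the other changes was not tested. The setting without the 2 arrays of the second code was not run for body weight in CR and INT or for the difference between body weight effects, and array code was a term only for diets and for body weight over all diets. Each diet had 4 mice, low intensities such as those of Pnpla5 lie near the filter, and Scd1 lies near the top of the intensity range.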
